A study of Homo sapiens with 12 samples.

Results

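miR-103a-3p and miR-107 (hsa-miR-103a-3p and hsa-miR-107 in the table) are sister miRNAs of vertebrates that lie in introns of the pantothenate kinase genes PANK1, PANK2 and PANK3. They were followed here across 12 small RNA libraries of HCT116 cells, which derive from a human colorectal carcinoma. The members were chosen by name: miR-103a-3p was taken from its hairpin line with the most reads, and miR-107 from its only line. They are 2 of 1277 mature miRNAs that remained after lines holding the same reads had been collapsed. All cells lacked DROSHA, the nuclear RNase III enzyme that makes the first cut in most primary miRNA transcripts. All received 4.5 µg of the plasmid pXC-NLS-DG4, whose product the labels do not name, together with a pCK plasmid. That plasmid coded for DROSHA with its belt deleted, for the DROSHA mutant m4, for wild-type DROSHA, or was empty. Per the treatment protocol, 4.5 µg is recorded for the plasmid of each DROSHA form, and no amount for the empty plasmid. There were 3 libraries per plasmid. The labels do not say what is altered in m4, nor whether the repeats are separate cultures, so p-values measure the spread between these libraries, which may be technical. Nor do they say whether the knockout line is 1 clone. The groups ask how far each form of DROSHA restores the miRNAs of cells without it.

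DROSHA works with DGCR8 as the Microprocessor, which measures a hairpin and cuts it at the base. DICER then trims the hairpin to a duplex, and 1 strand is loaded into an Argonaute protein. Intronic miRNAs such as miR-103 and miR-107 are cut out of the host gene's unspliced transcript. PANK enzymes catalyse the first step of coenzyme A synthesis. As background, the pair is known to repress DICER1 in human breast cancer cells and to affect insulin signalling in mouse liver and fat.

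The mature sequences show why counts of the pair must be read together. In the lines that follow, capitals mark the seed (bases 2 to 8, counted from the 5′ end) and base 22, the position at which they differ.
miR-103a-3p: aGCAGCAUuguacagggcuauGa
miR-107: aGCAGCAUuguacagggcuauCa
The substitution from miR-103a-3p to miR-107 is G22C, next to the last of 23 bases. The first 21 bases are identical. Among 2370 human mature names in RefSeq (GRCh38.p14), these 2 names alone carried this seed, which is 0.0844% of the names.

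miR-103a-3p has 2 source hairpins and miR-107 has 1. The hairpins are printed from RefSeq with the mature 3p sequence in capitals, to show how alike the sources of the pair are outside the mature sequence as well.
MIR103A1: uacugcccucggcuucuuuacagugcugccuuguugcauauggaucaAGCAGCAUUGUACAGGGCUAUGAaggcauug
MIR103A2: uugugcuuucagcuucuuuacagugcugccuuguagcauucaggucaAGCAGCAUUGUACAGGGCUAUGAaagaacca
MIR107: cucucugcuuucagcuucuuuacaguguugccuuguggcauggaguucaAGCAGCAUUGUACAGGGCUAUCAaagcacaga
MIR103A1 lies on the minus strand at chr5:168560896-168560973, MIR103A2 on the plus strand at chr20:3917494-3917571 and MIR107 on the minus strand at chr10:89592747-89592827 (GRCh38.p14). In the GENCODE annotation of the same build, MIR103A1 is in intron 5 of 6 of PANK3, which is 2235 bp long. MIR103A2 is in intron 5 of 6 of PANK2, of 1620 bp. MIR107 is in intron 5 of 6 of the principal PANK1 transcript, of 4419 bp. Each hairpin is on the strand of its host gene, and the matching intron number is a shared property that the choice of members did not use.

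The 2 miR-103a hairpins were identical at 63 of 78 aligned positions (80.8%). MIR107 was identical to MIR103A2 at 69 of 81 positions (85.2%) and to MIR103A1 at 64 of 81 (79.0%), so the hairpin of miR-107 was no farther from MIR103A2 than the miR-103a hairpins were from each other. GC content was 48.7% for MIR103A1, 44.9% for MIR103A2 and 46.9% for MIR107, all under the median of 52.1% over 1562 human hairpins. The folding energy computed with ViennaRNA was -31.0, -28.1 and -29.5 kcal per mol in the same order. The letters UGU, searched on the hairpin strand in the 20 bases before the mature 3p sequence, stood in all 3 hairpins and began at base 5 of that window in each. Of 1127 hairpins with an annotated 3p sequence, 37.2% hold UGU in the same window.

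The table totals of the libraries ran from 132667 to 407461 reads, the lowest in an m4 library, and 649 to 800 mature miRNAs were detected per library. DROSHA messenger RNA and the PANK transcripts are not measured by such libraries, so the labels could not be checked on the targeted gene. Because DROSHA acts on most hairpins at once, reads were divided by a size factor taken from 4 features known to mature without it (miR-320, miR-484, miR-877-5p and miR-1224-5p), and are called scaled reads below. These features are taken as constant, which the data cannot show. Size factors ran from 0.492 to 1.65. Of 13 cell type markers listed, 11 were analysed. The summed scaled reads of 5 intestinal epithelial markers, led by miR-200c-3p, ran from 70.5 to 200.2 with the belt deletion, 103.5 to 143.9 with m4, 69.9 to 138.1 with wild type and 42.3 to 52.1 with the empty plasmid. The sums of 6 markers of other cell types ran from 559.8 to 855.4, 359.3 to 643.8, 479.1 to 788 and 196.6 to 255.8 in the same order of plasmids. The largest part of the wild-type sum was miR-126-3p, an endothelial marker, while the erythroid marker miR-451a stayed at 0 to 1.13 in every library. The markers within these sums did not move alike. With the empty plasmid and wild type, miR-126-3p averaged 8.62 and 431 scaled reads, and the neuronal marker miR-9-5p 18.6 and 75.3. The smooth muscle marker miR-143-3p averaged 121.2 and 121.9, and the liver marker miR-122-5p 72.5 and 52.7. The epithelial markers miR-200c-3p and miR-192-5p averaged 41.8 and 69.7, and 2.33 and 29.5. The part of these markers in the results on miR-103a-3p and miR-107 was not tested.

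Both miRNAs were low in cells without DROSHA, higher with m4, and higher still with wild-type DROSHA and with the belt deletion. miR-103a-3p had 399, 375 and 470 raw reads in belt deletion replicates 1, 2 and 3, and 52, 69 and 61 in the m4 replicates. It had 413, 417 and 355 reads in the wild-type replicates and 22, 15 and 21 in the empty plasmid replicates. The reads alone separate the empty and m4 libraries from the others, and they leave wild type and belt deletion intermingled. miR-107 had 368, 325 and 424 raw reads with the belt deletion and 49, 61 and 60 with m4. It had 369, 388 and 328 with wild type and 20, 13 and 18 with the empty plasmid. Every miR-107 value lay just under the miR-103a-3p value of the same library.

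After scaling, miR-103a-3p stood at 382, 444 and 394 scaled reads with the belt deletion, at 64.3, 54.1 and 79.8 with m4, at 551, 847 and 400.2 with wild type, and at 14.5, 10.2 and 12.7 with the empty plasmid. The means were 407 ± 32.9, 66.1 ± 12.9, 600 ± 227 and 12.5 ± 2.17 (SD, n = 3 each). Wild type was the most variable group, with its highest library 2.12-fold above its lowest. miR-107 stood at 352, 385 and 356 scaled reads with the belt deletion, at 60.6, 47.8 and 78.5 with m4, at 493, 788 and 370 with wild type, and at 13.2, 8.82 and 10.9 with the empty plasmid. Its means were 364 ± 17.9, 62.3 ± 15.4, 550.2 ± 215 and 10.96 ± 2.19 (SD, n = 3 each). For both miRNAs the order of the means was thus wild type, belt deletion, m4 and empty. Each neighbouring pair of groups was separated without overlap except wild type and belt deletion, whose libraries overlapped.

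As a share of the wild-type mean, miR-103a-3p reached 67.9% with the belt deletion, 11.02% with m4 and 2.08% with the empty plasmid. The shares for miR-107 were 66.2%, 11.3% and 1.99%. Relative to the count, the counting error was largest in the empty libraries. The 15 reads of miR-103a-3p in empty replicate 2 carry a 95% Poisson interval of 8.4 to 24.7 reads, and 417 reads in wild-type replicate 2 one of 378 to 459. These intervals cover counting error only, since the protocol in the labels names no molecular identifiers. Among all miRNAs of a library ranked by reads, miR-103a-3p was 36th to 42nd with the belt deletion, 80th to 88th with m4, 29th to 41st with wild type and 132nd to 163rd with the empty plasmid. In transfected cultures, a lower share of cells that took up the plasmid and a lower level in each cell cannot be told apart.

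**Figure D1:**
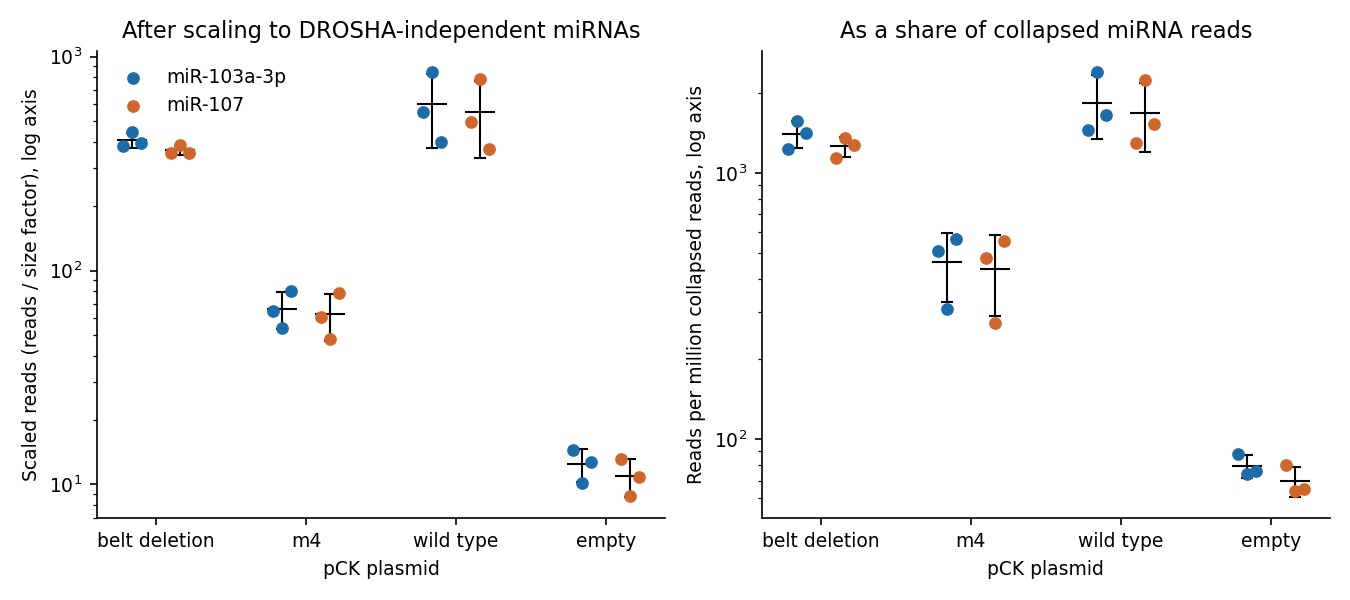
Scaled reads (left) and RPM, the share of the reads left after lines with the same reads were collapsed (right), both on a log axis, of miR-103a-3p and miR-107 by pCK plasmid. Points are libraries, and bars are the mean ± SD of 3 libraries. The belt deletion means are 407 and 364 scaled reads against wild-type means of 600 and 550.2, m4 lies at 66.1 and 62.3, and the empty plasmid at 12.5 and 10.96.

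With wild-type DROSHA against the empty plasmid, miR-103a-3p was 47.6-fold higher (log2 5.57, SE 0.40, edgeR quasi-likelihood test, Benjamini-Hochberg adjusted p = 1.16e-18). miR-107 was 49.6-fold higher (log2 5.63, SE 0.41, edgeR adjusted p = 1.61e-18). The intervals of the fold change were 27.3 to 82.9 for miR-103a-3p and 28.1 to 87.5 for miR-107 (95%). All 3 wild-type libraries exceeded all 3 empty ones for both. Of 302 miRNAs tested, 46.4% were called higher and 54.3% were higher without overlap, so a call as such does not set the pair apart. By size of the change they ranked 25th and 21st of the 302, whose median change was 1.08 on the log2 scale.

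With m4 against the empty plasmid, miR-103a-3p was 5.25-fold higher (log2 2.39, SE 0.36, edgeR adjusted p = 1.52e-07) and miR-107 was 5.61-fold higher (log2 2.49, SE 0.37, edgeR adjusted p = 1.14e-07). The groups did not overlap for either. In this comparison 44% of the miRNAs tested were called higher and 49.7% were higher without overlap. The pair ranked 53rd and 49th of 302, against a median change of 0.99.

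With the belt deletion against the empty plasmid, miR-103a-3p was 32.3-fold higher (log2 5.02, SE 0.39, edgeR adjusted p = 2.85e-17) and miR-107 was 32.9-fold higher (log2 5.04, SE 0.40, edgeR adjusted p = 5.14e-17). No library of one group overlapped the other. Here 45.7% of the miRNAs tested were called higher and 53% were higher without overlap, and the pair ranked 34th and 32nd. The comparisons with wild type, m4 and belt deletion share the 3 empty libraries.

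Set directly against wild type, m4 gave 9.07-fold less miR-103a-3p (log2 -3.18, SE 0.35, edgeR adjusted p = 3.53e-11) and 8.83-fold less miR-107 (log2 -3.14, SE 0.36, edgeR adjusted p = 8.33e-11). The m4 libraries all lay under the wild-type ones. Of all miRNAs tested 36.8% were called lower and 35.4% were lower without overlap. With the largest rise ranked first, the pair stood at ranks 278 and 275 of 302, among the larger losses, against a median of -0.35.

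Belt deletion and wild type were not separated by the test. Against wild type the change of miR-103a-3p was -0.56 on the log2 scale (SE 0.32, 95% interval -1.20 to 0.09, edgeR adjusted p = 0.257). For miR-107 it was -0.59 (SE 0.33, 95% interval -1.25 to 0.07, edgeR adjusted p = 0.240). Neither passed the test and the groups overlapped, while 10.9% of the miRNAs tested were called lower, 13.6% were called in either direction and 17.5% were lower without overlap. The intervals leave room for a loss of up to 2.30-fold for miR-103a-3p and 2.38-fold for miR-107, so these data do not show the levels to be alike. The estimate leans on single wild-type libraries: for miR-103a-3p it was -0.23 without wild-type replicate 2 and -0.78 without wild-type replicate 3, and the test was not passed in either case. It also leans on the reference, whose features moved unequally. Scaled to miR-484 alone the difference in mean log2 level for miR-103a-3p was -0.01, and scaled to miR-1224-5p alone it was -1.14.

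Against m4, the belt deletion gave 6.17-fold more miR-103a-3p (log2 2.62, SE 0.35, edgeR adjusted p = 7.43e-09) and 5.86-fold more miR-107 (log2 2.55, SE 0.35, edgeR adjusted p = 2.08e-08). All 3 belt deletion libraries exceeded all 3 m4 libraries. In this comparison 26.8% of the miRNAs tested were called higher and 31.8% were higher without overlap. The pair ranked 27th and 29th of 302, against a median change of 0.18.

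**Figure D2:**
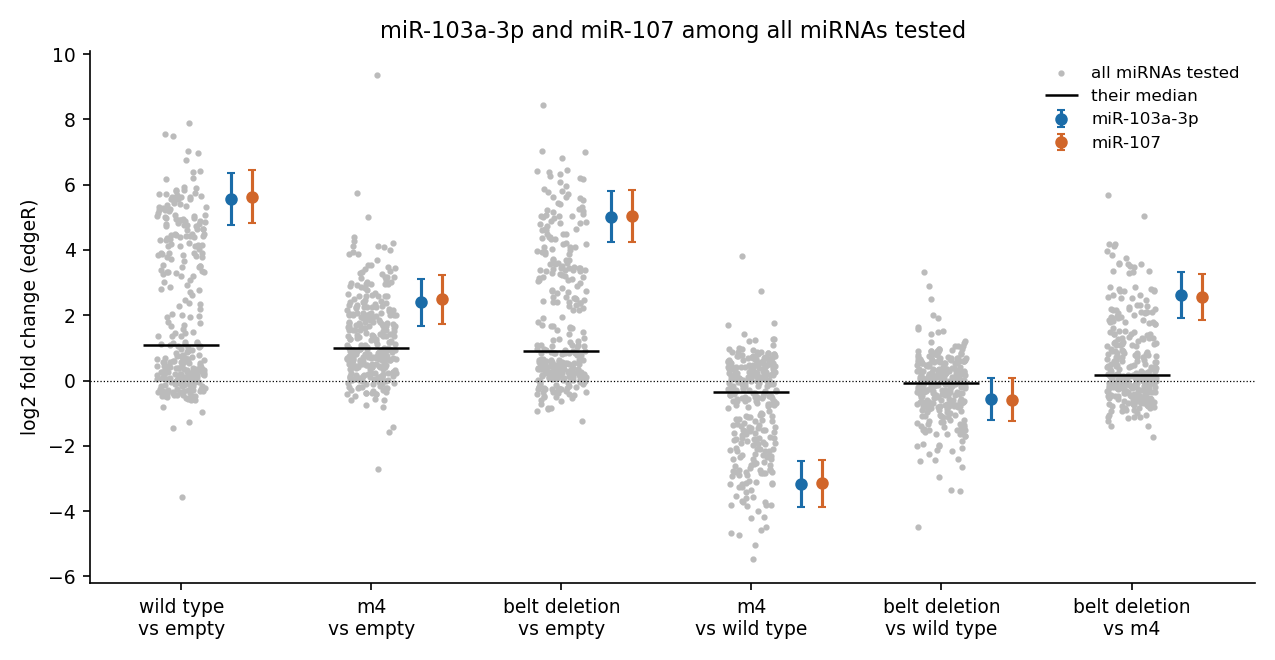
edgeR log2 fold changes in 6 comparisons, each named with the group on top of the ratio first. Grey points are the 302 miRNAs tested, black bars their median, and coloured points with bars miR-103a-3p and miR-107 with their 95% intervals. The intervals of both exclude 0 except in belt deletion against wild type, where they run from -1.20 to 0.09 and from -1.25 to 0.07.

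How far the changes depend on the scaling is shown by 6 ways of setting library sizes. For wild type against empty, the change of miR-103a-3p was 5.57 with the DROSHA-independent reference and 4.42 with TMM, which centres on all miRNAs. The median of all miRNAs moved as well, to -0.12 with TMM against 1.08 with the reference. Relative to that median miR-103a-3p was higher by 4.49 with the reference and by 4.54 with TMM. For m4 against wild type the change was -3.18 with the reference and -1.997 with total counts, under which the median of all miRNAs stood at 0.86. Relative to the median the value was -2.83 with the reference and -2.85 with total counts. A new scaling shifts all miRNAs of a comparison by nearly the same amount, and taking away the median removes that shift by construction. The closeness of the values relative to the median is therefore not a result. No scaling turned the sign of a change of the pair in any of the 6 comparisons.

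**Figure D3:**
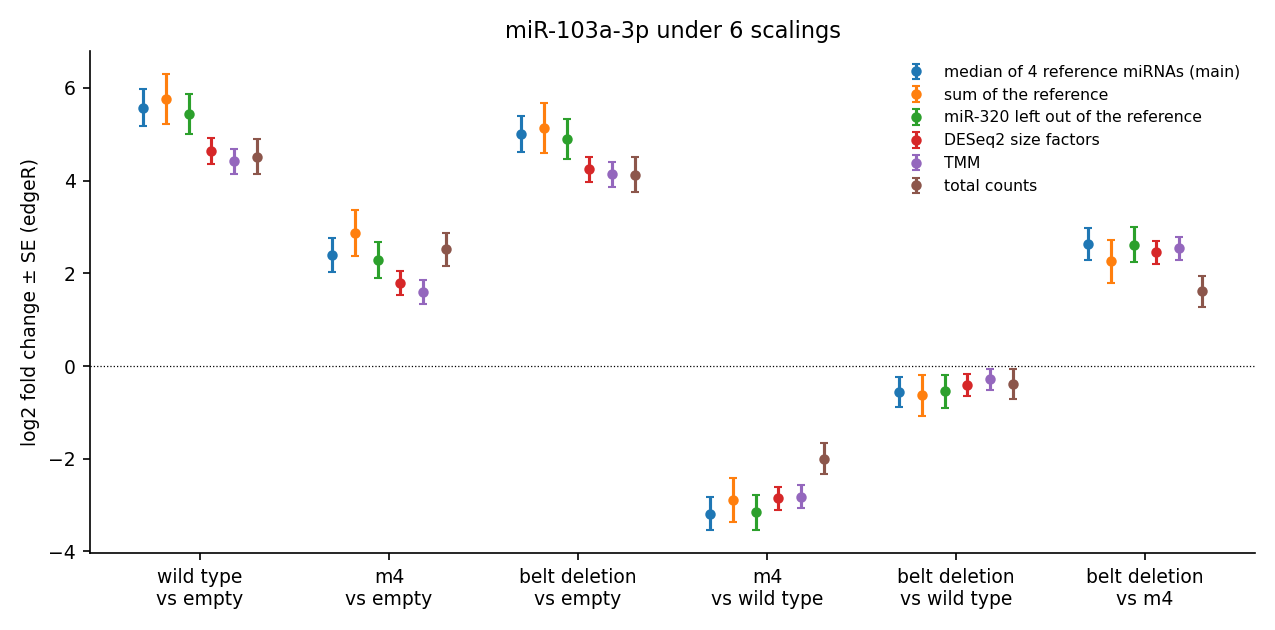
edgeR log2 fold change ± SE of miR-103a-3p in 6 comparisons under 6 scalings. The values against the empty plasmid lie between 4.42 and 5.76 for wild type, and belt deletion against wild type lies between -0.63 and -0.28 under all 6.

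The pair tracked each other more closely than separate counting would give. Over all libraries miR-103a-3p had 2669 reads and miR-107 had 2423, which is 90.8% as many, and by library the share ran from 85.7% to 98.4%. A chi-square of the read ratio over the 12 libraries was 0.955 on 11 degrees of freedom, where independent counts at a constant ratio would average 11. Of 26 pairs of mature names with at most 2 differing positions and at least 300 reads in total, this was the lowest value. The next was 6.70 for miR-378a-3p and miR-378c, followed by 25.3 for miR-200c-3p and miR-200b-3p, and the highest was 5513 for let-7i-5p and let-7g-5p. For ratios that vary, the chi-square grows with the number of reads, so it does not rank these pairs by how closely they tracked. With many reads, miR-320b and miR-320c had a chi-square of 319 though their log2 ratio spanned only 0.66. That of miR-200c-3p and miR-200b-3p spanned 1.51. These pairs were gathered after the values of miR-103a-3p and miR-107 had been seen, and no test was made on them. How the counter treated a read that stops before base 22, where the sequences G22C apart become equal, is not stated, so how many reads stand in both lines cannot be told from the table. The values of miR-107 are therefore not independent evidence beside those of miR-103a-3p.

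**Figure D4:**
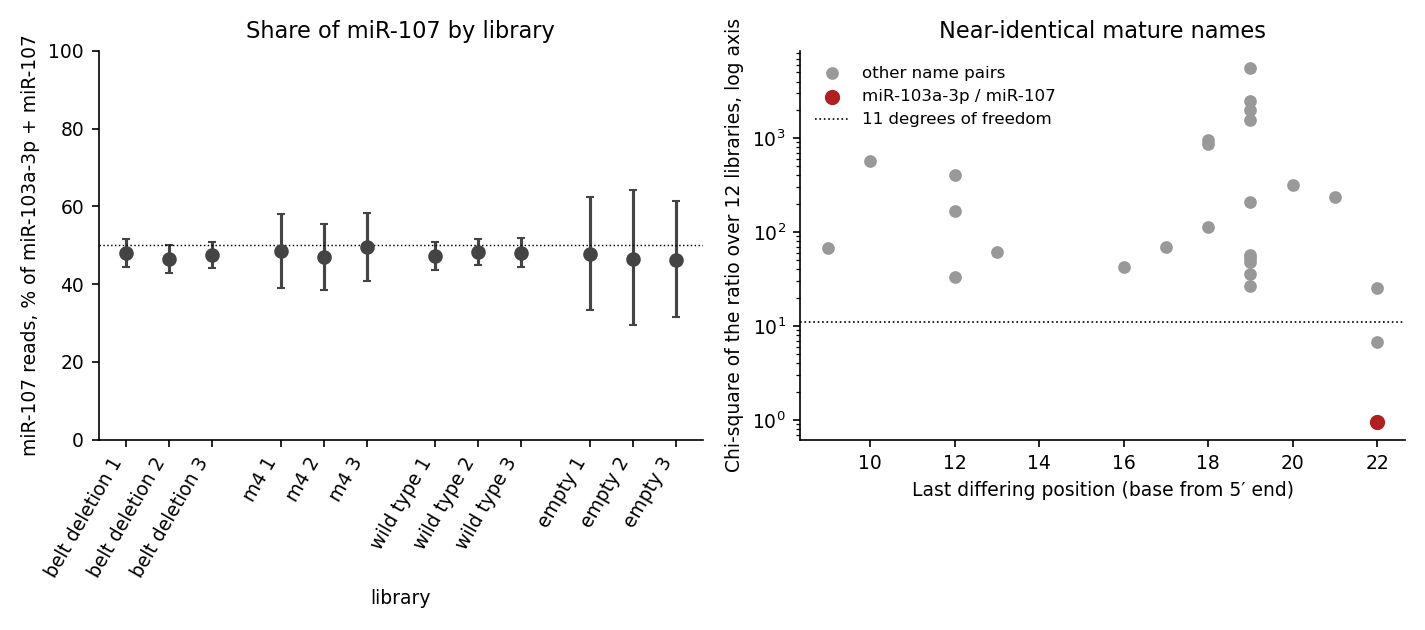
Left, miR-107 reads as a percentage of the reads of both names in each library, with Wilson 95% intervals and a dotted line at equal shares. Right, the chi-square of the read ratio over 12 libraries (log axis) for 26 pairs of near-identical names by the last position at which they differ, with a dotted line at 11 degrees of freedom. miR-103a-3p and miR-107 have the lowest chi-square, 0.955.

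The ratio of the pair showed no difference between groups that the tests could resolve. The mean log2 ratio of miR-103a-3p to miR-107 was 0.16 ± 0.05 with the belt deletion, 0.09 ± 0.08 with m4, 0.13 ± 0.03 with wild type and 0.18 ± 0.04 with the empty plasmid (SD, n = 3 each). An exact permutation test over the 4 groups gave p = 0.263 (adjusted p = 0.395 over 3 ratios). In 6 pairwise two-sided exact permutation tests, the smallest p was 0.2 and each adjusted p was 0.6. With 3 libraries against 3 such a test cannot go below 0.1. A change of 1 of the miRNAs alone and a change of both cannot be told apart to the extent that the lines share reads.

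The other lines of these hairpins add little signal. miR-103b is annotated on the opposite strand of the same loci, and RefSeq gives its sequence as the exact reverse complement of miR-103a-3p over 23 of 23 bases.
miR-103b: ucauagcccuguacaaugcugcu
Its 2 lines held the same reads as the 2 lines of miR-103a-3p in every library, 2667 and 2669 in total, including 415 and 417 in wild-type replicate 2. The use of strand is not stated, so the table does not tell which strand these reads came from, and miR-103b was not counted separately. The 5p strands miR-103a-1-5p and miR-103a-2-5p each had 1 read, in wild-type replicate 3, and 0 in the other 11 libraries. Within the lines of the miR-103a hairpins, nearly all counted reads thus stood under the 3p name. Whether these reads came from the miR-103a hairpins cannot be told from the table. With 15 to 22 reads in each empty library, a scarce 5p strand could go unseen there.

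Most listed miRNAs of the miR-15/16 family share the bases AGCAGCA with miR-103a-3p and miR-107, shifted by 1 base. Of the 2370 mature names, 9 (0.38%) have AGCAGCA starting at base 1 or 2. It stands at base 2 in the sequence that follows, in capitals, which is shown to make the offset visible.
miR-16-5p: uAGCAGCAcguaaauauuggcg
Of 9 family members listed, 6 were analysed and 2 passed the filter on low counts. miR-16-5p, known to act on cell cycle genes, had 6.71, 15.4 and 15.1 scaled reads with the belt deletion and 1.24, 5.49 and 10.5 with m4. It had 60.1, 30.5 and 24.8 with wild type and 3.30, 0 and 0 with the empty plasmid. For belt deletion against wild type its change was -1.63 on the log2 scale (SE 0.56, edgeR adjusted p = 0.0443). That call was lost with TMM, DESeq2 size factors, total counts, the sum of the reference, the DESeq2 Wald test, the replicate block, the sum over hairpin lines, and without single libraries (empty replicate 2, wild-type replicates 1 or 2, or any belt deletion replicate). Only 141 reads of miR-16-5p were counted in all. Its ratio to miR-103a-3p rests, in 2 empty libraries, on the 0.5 reads added to a count of 0, so the exact permutation test over the 4 groups (p = 0.596, adjusted p = 0.596, and p = 0.265 with 1 read added) is not read as a result. miR-503-5p, the other member that passed, does not hold AGCAGCA. It averaged 8.81 ± 6.10 scaled reads with the belt deletion, 0.44 ± 0.76 with m4, 15.6 ± 2.97 with wild type and 0 with the empty plasmid (SD, n = 3 each). With 0 reads in every empty library it passed the filter through the groups where it is high, so no count of calls is drawn from these 2 members.

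Other intronic miRNAs give a setting for the pair. A list of 30 miRNAs known to lie in introns of protein-coding genes was drawn up from general knowledge. Of these 29 were analysed and 22 passed the filter, which favours miRNAs that are high in at least 1 group. With wild type against empty all 22 were called higher (median log2 4.42), where 46.4% of all miRNAs tested were. With m4 against empty 21 of 22 were called higher (median 1.83), where 44% of all miRNAs tested were. With TMM 13 of 22 were called higher there, beside 84 of 309 over all miRNAs tested. With the belt deletion against empty all 22 were called higher (median 3.25), where 45.7% of all were. With TMM 19 of 22 were called higher there, beside 115 of 309 over all. Since the filter favours such miRNAs, these counts describe the list only. The pair, at 5.57 and 5.63, exceeded 20 and 21 of the 22 values for wild type against empty.

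Set against wild type, 21 of the 22 were called lower with m4 (median -2.05), beside 36.8% of all miRNAs tested. With total counts 11 of 21 were called lower with m4, beside 60 of 310 over all. With the belt deletion against wild type, under the reference again, 11 of 22 were called lower (median -1.29), beside 10.9% of all. miR-26b-5p and miR-7-5p were among those 11. miR-26b-5p, hosted by a CTDSP phosphatase gene, averaged 16.5 ± 11.1 scaled reads with the belt deletion and 125 ± 30.5 with wild type (SD, n = 3 each; log2 -2.94, SE 0.44, edgeR adjusted p = 5.36e-07). miR-7-5p averaged 1690 ± 148 and 9177 ± 3636 in the same order (log2 -2.44, SE 0.33, edgeR adjusted p = 4.97e-08). Of the intronic miRNAs that did not pass, miR-126-3p was at 408 ± 95.8 with the belt deletion and 431 ± 144 with wild type. At -0.56 and -0.59 the pair lay above 17 of the 22 list values and closer to 0 than their median. With the belt deletion against m4, 12 of 22 were called higher (median 1.13), beside 26.8% of all. With total counts 4 of 21 were higher and 3 lower, beside 47 higher and 121 lower of 310 over all miRNAs tested. The filter bears on these comparisons as well, since it keeps miRNAs that are high with wild type alone. For example, miR-106b-5p had 17.4, 36.6 and 13.5 scaled reads with wild type and no more than 9.9 in any other library. These counts and medians too describe the list only, as does the place of the pair among its values.

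miR-26a-5p and miR-26b-5p are parallels in layout, since their hairpins also lie in introns of a family of related genes, those coding for CTDSP phosphatases. The 2 differed from each other. miR-26a-5p had 1112, 884 and 1003 scaled reads with the belt deletion, 130, 115 and 183 with m4, 1769, 1306 and 1025 with wild type and 46.8, 40.02 and 46.0 with the empty plasmid. Its groups were ordered like those of the pair, with overlap between belt deletion and wild type. The change was -3.26 for m4 against wild type (SE 0.33, edgeR adjusted p = 2.95e-12) and -0.45 for belt deletion against wild type (SE 0.30, edgeR adjusted p = 0.347). miR-26b-5p was not ordered like the pair: its belt deletion mean of 16.5 scaled reads lay under its m4 mean of 23.4. Against wild type its change with the belt deletion was -2.94 (SE 0.44, edgeR adjusted p = 5.36e-07), without overlap. The log2 ratio of miR-103a-3p to miR-26a-5p averaged -1.29 ± 0.28, -1.09 ± 0.09, -1.22 ± 0.54 and -1.81 ± 0.14 for belt deletion, m4, wild type and empty (SD, n = 3 each). The exact permutation test over the 4 groups gave p = 0.106 (adjusted p = 0.318).

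**Figure D5:**
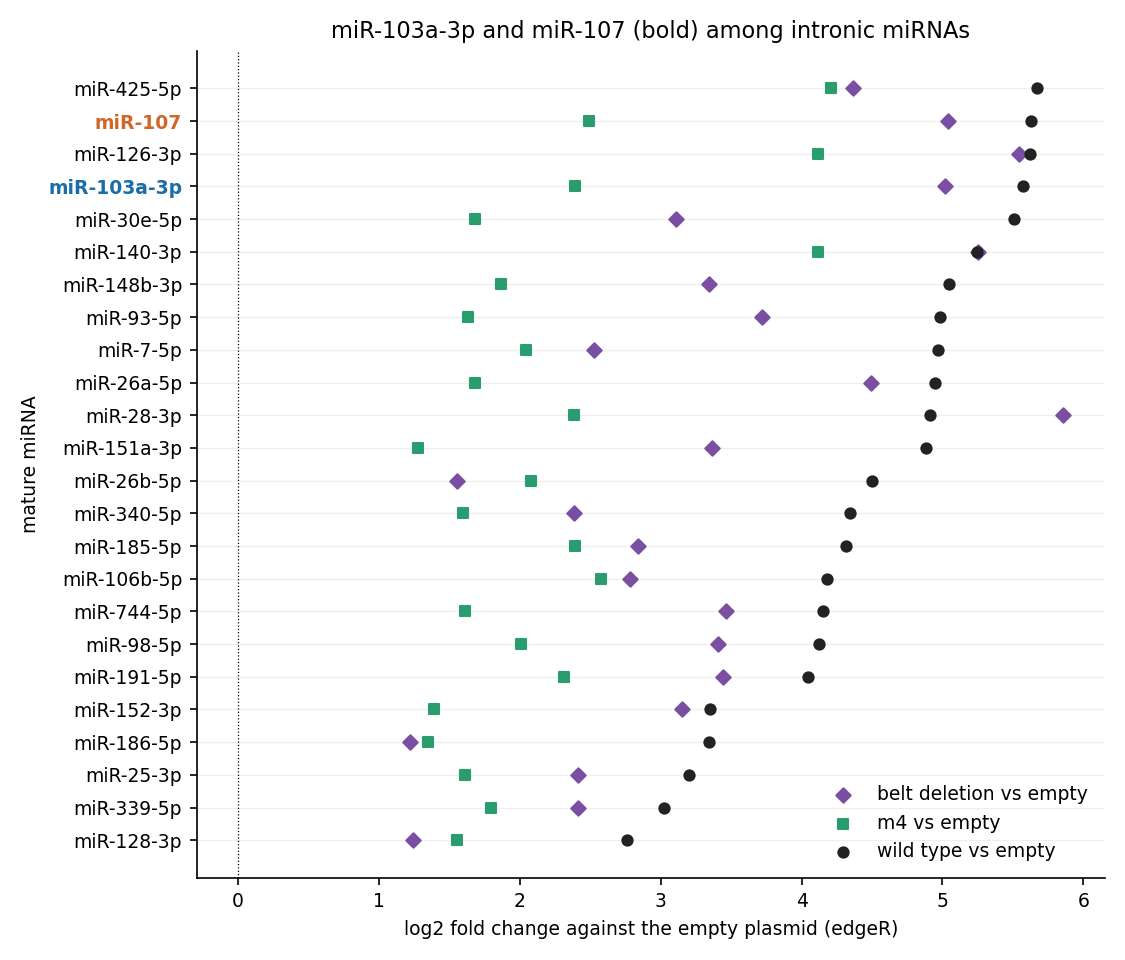
edgeR log2 fold changes against the empty plasmid for the 22 intronic miRNAs that passed the filter and for miR-103a-3p and miR-107 (bold), ordered by the value for wild type. Diamonds are the belt deletion, squares m4 and circles wild type. For miR-103a-3p and miR-107 the diamond lies near the circle, at 5.02 and 5.04, while the square is at 2.39 and 2.49.

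Across the 12 libraries the miRNAs whose scaled levels ran most like miR-103a-3p were let-7f-5p (Pearson r = 0.994), miR-21-5p (0.992), miR-24-3p (0.992), miR-10a-5p (0.989) and miR-26a-5p (0.988). For miR-107 they were let-7f-5p (r = 0.994), miR-24-3p (0.993), miR-21-5p (0.990), miR-10a-5p (0.990) and miR-182-5p (0.988). These values are over log2 scaled reads, and all points share the size factors and the large step between the groups, so they are a description with no test. The levels differed widely among these miRNAs: let-7f-5p averaged 1204, 321, 1923 and 92.0 scaled reads for belt deletion, m4, wild type and empty, and miR-21-5p 75343, 7445, 89177 and 1879.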

How the data were processed

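The deposited table holds raw read counts per hairpin and mature miRNA for 12 libraries of 4 groups, with blanks read as 0. Per the labels' protocols, RNA of 19 to 24 nt was cut from a 15% gel and cloned with a NEBNext kit. The submitters' processing notes name cutadapt, Bowtie2 and hg38; the counter, strand use and multiple matches are not given in the sources used here.

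Where a mature name had several lines, its best covered line was kept, and 9 name pairs with matching reads (within 5 reads or 5%) were joined. Each size factor was the median, over 4 of 9 DROSHA-independent features (those reaching 20 reads in each library), of the ratio to the feature's geometric mean. edgeR 4.0.16 (robust quasi-likelihood, R 4.3.3) was fitted to the 12 libraries with no covariate. After filterByExpr 302 miRNAs remained, the Benjamini-Hochberg adjustment ran over these, and a call is an adjusted p under 0.05. The SE is the log2 change over the square root of F. Ratios were tested by exact permutation, with 0.5 added to reads. The fit was tested on simulated data. Alternatives included TMM, DESeq2 1.42.0, other filters and leaving out each library. Named miRNAs were the members, all lines of their hairpins, the lists, and the 5 miRNAs most correlated with each member; those singled out within a list were picked after their values were seen. Members and lists were chosen with earlier results of these data known. Sequences come from RefSeq and folding from ViennaRNA 2.7.2.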

Additional observations from a re-analysis of the deposited data

How the results depend on the processing

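Of 423 alternative values over 21 results, 422 kept their direction and their side of the threshold. The exception was the log2 ratio of miR-103a-3p to miR-107 for m4 against wild type, which was -0.03 with all libraries and ran from -0.0724 to 0.00395 when 1 library was left out, changing sign without m4 replicate 3 (0.00395). This ratio could not pass, since the 6 pairwise exact permutation tests cannot go below p = 0.1, or 0.25 with the replicate block. Their side of the threshold was thus fixed in advance. So was the direction of the 3 ratios over 4 groups, whose value is a range between group means. The 422 include these values, for which keeping them is no sign of stability. They also include pairwise ratios recomputed without a library of neither compared group, which leaves the ratio unchanged by construction. The setting that sums the pair is entered under both members, and the values of miR-107 are not independent of those of miR-103a-3p. Over the 12 other settings, miR-103a-3p ran from 4.42 to 5.76 for wild type against empty, 1.60 to 2.87 for m4 against empty, 4.13 to 5.13 for belt deletion against empty, -3.19 to -1.997 for m4 against wild type, -0.63 to -0.28 for belt deletion against wild type and 1.61 to 2.63 for belt deletion against m4. Correlations of same-numbered deviations ran from -0.27 to 0.19 and gave no sign that repeat numbers pair the libraries. Libraries of different number were not set beside them, so pairing is not excluded. With the replicate block miR-103a-3p was 5.55, 2.39, 5.01, -3.16, -0.54 and 2.61 in the same 6 comparisons, and no call of the pair changed.

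Counts over all miRNAs moved more with the scaling, and the cause was not tested. For wild type against empty, 1 miRNA was called lower with the reference, 91 with TMM, 67 with DESeq2 size factors and 71 with total counts. For m4 against wild type, 4 were called higher and 111 lower with the reference, against 133 and 60 with total counts. For belt deletion against m4, 81 were higher and 4 lower with the reference, against 47 and 121 with total counts. For m4 against empty, 133 were higher and 3 lower with the reference, against 84 and 19 with TMM and 144 and 3 with total counts. For belt deletion against wild type, 8 were higher and 33 lower with the reference, against 26 and 30 with TMM. For belt deletion against empty, 138 were higher and 0 lower with the reference in edgeR (1 lower at an unadjusted p under 0.05, and 0 with DESeq2), against 115 and 44 with TMM. Requiring 10 reads in every library left 133 miRNAs, of which 58, 66 and 57 were higher than empty with wild type, m4 and belt deletion, against 140, 133 and 138 of 302. With m4 against wild type 43 were then lower against 111, with belt deletion against wild type 14 against 33, and with belt deletion against m4 34 were higher against 81. Without a filter 212 of 1277 were higher with wild type than with empty. The pair had its fewest reads in the empty libraries, 13 to 22 each, though the table totals of those libraries, 269550 to 372985 reads, were not the lowest. The lowest total was 132667 reads, in m4 replicate 1.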
